A study of Mus musculus with 7 samples.

Results

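The subunit genes of ligand-gated neurotransmitter receptors were described in mouse retina after infusion of angiotensin II (Ang II, a peptide hormone that raises blood pressure) or of saline. Members were the protein-coding genes whose symbols name a subunit of a GABA-A, glycine, ionotropic glutamate, nicotinic acetylcholine or P2X receptor. They numbered 65 of the 54532 genes in the count table. The rule that took them used no expression values, although it was chosen with earlier results of these data known. There were 19 GABA-A, 5 glycine, 18 glutamate, 16 nicotinic and 7 P2X genes.

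Retinal poly-A RNA was counted per gene in 4 libraries of mice given Ang II and 3 of mice given saline, all at day 28. Values per library are listed throughout in order of replicate number. The genotype is ApoE-/- for every mouse in the series text but WT for all 7 libraries in the sample labels. Apoe had 253 to 406 counts in Ang II and 150 to 304 in saline, and the genotype was not settled from the counts. The labels give neither age, strain, dose nor the number of animals behind a library, so p-values here measure the spread between libraries.

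These receptors are ion channels that open when a transmitter binds. GABA-A and glycine receptors are pentamers that pass chloride, nicotinic receptors are pentamers that pass cations, ionotropic glutamate receptors are tetramers, and P2X receptors are trimers gated by ATP. In the retina, photoreceptors and bipolar cells release glutamate, amacrine cells release GABA, glycine or acetylcholine, and the subunit mix of a postsynaptic cell sets the kinetics and pharmacology of its response. Receptors made of rho subunits carry a slow, sustained GABA current at the axon terminals of bipolar cells.

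Depth ran from 14655431 to 17563493 counts per library. Rod markers, 10 genes that define the main retinal cell type, summed to 58082 to 69968 CPM (counts per 1000000, scaled by TMM) in Ang II and, without overlap, 70914 to 76449.8 in saline. The defining markers of the labelled tissue were thus present. Markers of cells outside the neural retina varied between libraries, and those of pigment epithelium also separated the groups. The 10 pigment epithelium markers summed to 1079 to 1880.1 CPM in Ang II and, without overlap, to 188, 229 and 969.6 CPM in saline replicates 1, 2 and 3. Of these 10 genes, 7 were higher in Ang II without overlap, beside 3.18% of all genes tested, while Best1, Pmel and Mlana overlapped. The 12 skeletal muscle markers reached 318 CPM in Ang II replicate 3, against 22.2 to 43.5 CPM in the other 6 libraries. In the same library the 7 gliosis genes summed to 229 CPM, against 39.5 to 63.2 CPM elsewhere. The 8 lens and cornea markers ran from 3.08 CPM in Ang II replicate 4 to 2143 CPM in Ang II replicate 2. The 8 immediate early genes summed to 102 to 139 CPM in Ang II and, without overlap, to 269, 587 and 140.4 CPM in saline replicates 1, 2 and 3. Of the 7 tested, Ier2, Egr1 and Fos were lower in Ang II without overlap, and Fosb was higher. Together these are 57.1%, beside 5.91% of all genes tested, while Nr4a1, Arc and Junb overlapped. Egr1 alone reached 367 CPM in saline replicate 2.

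Of the 65 genes, 57 had enough counts to be tested, and 3 (Gabra6, Gabrp and Chrna9) had no count in any library. Levels between genes were compared as CPM per kilobase of the gene's exon length. On that scale the rho subunit gene Gabrr1 had the highest mean of all 65, 43.6 ± 4.55 (SD over 7 libraries), followed by the nicotinic gene Chrna6 at 39.8 ± 4.59 and by Gabrr2 at 36.7 ± 4.5. Their ranges overlapped. Chrna6 was above Gabrr1 in Ang II replicates 1 and 4, and Gabrr2 above Chrna6 in Ang II replicate 3 and saline replicate 2. The kainate subunit gene Grik5 was at 22.3 ± 2.16 and Glrb at 19.4 ± 2.09. The order also depended on length. Without division by length, Gria2 (mean 134.9 CPM), Chrna6 (115.7 CPM) and Grik5 (115.3 CPM) were above Gabrr1 (99.8 CPM). Of the summed level of all members, the GABA-A genes held 43.5%, the glutamate genes 24.7%, the nicotinic genes 21.6%, the glycine genes 8.86% and the P2X genes 1.24%, as means over the 7 libraries.

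**Figure D1:**
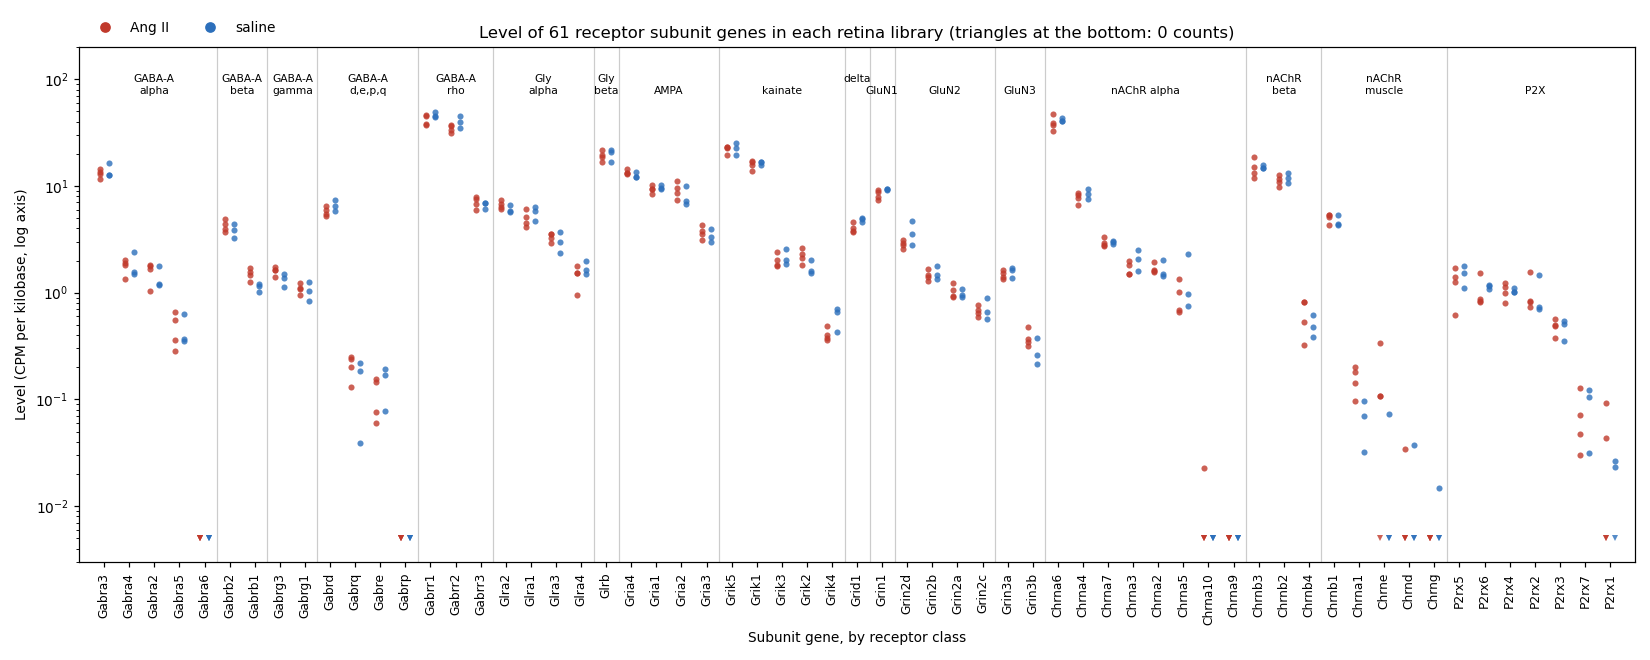
Level of 61 of the 65 subunit genes in each library, as CPM per kilobase on a log axis, with genes grouped by receptor class and ordered by mean level; red points are Ang II and blue points saline libraries, and triangles at the bottom mark libraries with 0 counts. Gabrr1, Chrna6 and Gabrr2 stand highest, and Gabra6, Gabrp and Chrna9 have only triangles.

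The rho subunits, which form GABA receptors insensitive to the classical GABA-A blocker bicuculline, took 21.5% of the level of all members with 3 genes. Gabrr1 (ENSMUSG00000028280, chromosome 4, 33132521 to 33163588, mm10) was at 36.8, 46.5, 38.1 and 45.1 across the 4 Ang II libraries and 44.1, 49.3 and 45.6 across the 3 saline libraries (CPM per kilobase). Gabrr2 (ENSMUSG00000023267, chromosome 4, 33062999 to 33095865) was at 31.2, 36.2, 33.1 and 37 across the 4 Ang II libraries and 34.7, 44.8 and 39.6 across the 3 saline libraries on the same scale. Gabrr1 was above Gabrr2 in 7 of 7 libraries, although the ranges of the pair over libraries overlapped, and both had their highest value in saline replicate 2 and their lowest in Ang II replicate 1. Gabrr3, which lies apart on chromosome 16, was lower at 6.0 to 7.81 CPM per kilobase. Gabrr1 made up 50.1% ± 1.01 with Ang II (SD, n = 4) against 50.1% ± 1.31 with saline (SD, n = 3; exact permutation p = 1.0, adjusted p = 1) of the class. Gabrr2 held 40.0% to 44.4% and Gabrr3 6.59% to 9.08% over the 7 libraries.

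RefSeq start-site windows (GRCm38.p6, the mm10 assembly, 250 bases before to 50 bases after the start) were matched by symbol for 45 of the 65 genes. They are printed below for the 3 rho genes, which differ in level, for Gabra6, which had no count, and for the opposed neighbours Gabra4 and Gabrb1. Sequences run 5′ to 3′ on the gene's strand, in lower case, with each CG dinucleotide (the site of DNA methylation) in capitals.
Gabrr1 (chr4:33132306-33132605, + strand): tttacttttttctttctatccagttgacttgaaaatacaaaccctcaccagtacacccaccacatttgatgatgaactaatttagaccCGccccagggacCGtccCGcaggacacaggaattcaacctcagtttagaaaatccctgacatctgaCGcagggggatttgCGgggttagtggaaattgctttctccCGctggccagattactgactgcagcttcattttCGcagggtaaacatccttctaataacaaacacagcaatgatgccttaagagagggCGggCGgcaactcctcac
Gabrr2 (chr4:33062862-33063161, + strand): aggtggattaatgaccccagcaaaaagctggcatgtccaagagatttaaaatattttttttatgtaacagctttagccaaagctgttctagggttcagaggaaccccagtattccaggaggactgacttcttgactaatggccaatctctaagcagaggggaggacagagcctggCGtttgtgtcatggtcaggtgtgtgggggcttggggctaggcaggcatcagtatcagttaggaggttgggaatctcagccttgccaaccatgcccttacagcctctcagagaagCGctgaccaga
Gabrr3 (chr16:59407132-59407431, + strand): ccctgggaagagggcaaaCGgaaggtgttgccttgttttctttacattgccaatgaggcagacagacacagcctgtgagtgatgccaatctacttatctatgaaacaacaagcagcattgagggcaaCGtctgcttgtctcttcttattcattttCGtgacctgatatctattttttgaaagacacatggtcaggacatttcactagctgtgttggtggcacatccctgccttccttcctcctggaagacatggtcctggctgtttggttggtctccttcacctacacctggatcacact
Gabra6 (chr11:42321023-42321322, - strand): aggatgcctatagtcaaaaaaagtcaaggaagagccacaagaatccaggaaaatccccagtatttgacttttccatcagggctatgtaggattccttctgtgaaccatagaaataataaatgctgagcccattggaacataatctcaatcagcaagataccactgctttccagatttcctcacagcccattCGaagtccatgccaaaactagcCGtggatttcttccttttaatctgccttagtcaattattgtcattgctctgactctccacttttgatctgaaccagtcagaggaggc
Gabra4 (chr5:71658259-71658558, - strand): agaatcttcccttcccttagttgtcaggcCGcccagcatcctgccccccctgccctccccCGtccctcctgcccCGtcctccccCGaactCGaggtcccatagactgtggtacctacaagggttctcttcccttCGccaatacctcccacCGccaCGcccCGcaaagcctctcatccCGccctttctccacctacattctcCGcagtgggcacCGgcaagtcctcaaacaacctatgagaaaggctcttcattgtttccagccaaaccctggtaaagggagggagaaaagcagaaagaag
Gabrb1 (chr5:71657671-71657970, + strand): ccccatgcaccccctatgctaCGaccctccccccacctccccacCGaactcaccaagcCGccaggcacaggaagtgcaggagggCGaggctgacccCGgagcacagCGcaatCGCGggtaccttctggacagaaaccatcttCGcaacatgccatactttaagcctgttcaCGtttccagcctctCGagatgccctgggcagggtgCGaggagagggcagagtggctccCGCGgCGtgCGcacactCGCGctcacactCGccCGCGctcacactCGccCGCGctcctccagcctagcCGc

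The windows held 9 CG in Gabrr1, 2 in Gabrr2, 3 in Gabrr3 and 2 in Gabra6. The Gabra4 window held 12. The Gabrb1 window printed held 25, and a second RefSeq window of Gabrb1 (chromosome 5, 71699682 to 71699981), further into the gene, held 9. Over all 32851 windows of 300 bases the median was 7, and over the 51 windows of members it was 10. Of all windows, 23.3% held 2 CG or fewer. Gabrr2, a highly expressed gene, and Gabra6, with 0 counts, thus had equally few. Gabra3, another well-expressed gene, has a pair of RefSeq windows with 0 CG each, a value that 5.43% of all windows share. At the other end, the windows of Glrb and Chrna4 held 30 and 33 CG. The letters TAATCC, the core recognised by the photoreceptor and bipolar factors CRX and OTX2, were searched on both strands. They were in the window of Gabrr2 and of 2 other members, Gabra2 and Chrne, and in 7.06% of all windows.

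Alpha subunits help form the GABA site and set benzodiazepine sensitivity. Gabra3 (ENSMUSG00000031343, chromosome X, 72432681 to 72656848) was at 12.9, 13.6, 11.6 and 14.5 across the 4 Ang II libraries and 12.5, 16.3 and 12.6 across the 3 saline libraries (CPM per kilobase), above Gabra4, Gabra2 and Gabra5 in every library. Gabra4 at 1.35 to 2.42 and Gabra2 at 1.04 to 1.81 CPM per kilobase overlapped in range, and their order held in 6 of 7 libraries. Gabra5, known for extrasynaptic receptors, was lower, at 0.284 to 0.658. Gabra6, a cerebellar granule cell subunit, had 0 counts in all 7 libraries. A count of 0 allows at most 0.21 CPM in the shallowest library.

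Beta subunits complete the GABA binding site. Gabrb2 was at 3.23 to 4.91 CPM per kilobase and Gabrb1 at 1.02 to 1.7, with no overlap. Of the gamma subunits, which anchor receptors at synapses, Gabrg3 and Gabrg1 were at 1.14 to 1.75 and 0.834 to 1.25, ranges that overlap although Gabrg3 was higher in 7 of 7 libraries.

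Gabrd, the delta subunit of extrasynaptic receptors, was at 5.17 to 7.31 CPM per kilobase, above Gabrg3 and Gabrg1 in 7 of 7 libraries. The theta and epsilon genes Gabrq and Gabre were at 0.0393 to 0.251 and 0.0599 to 0.192 CPM per kilobase, and their order held in 5 of 7 libraries. Gabrp, the pi subunit gene of epithelia, had 0 counts in every library.

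Many subunit genes sit beside each other in the genome. With gaps of at most 1 Mb, 31 of the 65 members fell into 12 groups, and levels could differ widely within a group. On the X chromosome Gabra3 at 13.4 ± 1.57 CPM per kilobase (SD over 7 libraries) stands between Gabre at 0.125 ± 0.0529 and Gabrq at 0.18 ± 0.0738. On chromosome 4, Gabrr2 and Gabrr1 lie 36656 bases apart and were both high. On chromosome 9, Chrna3 at 1.49 to 2.49 CPM per kilobase lies between Chrna5 at 0.653 to 2.28 and Chrnb4 at 0.324 to 0.821. The chromosome 5 group was low throughout, with Gabrg1, Gabra2, Gabra4 and Gabrb1 between means of 1.07 and 1.79 CPM per kilobase. In that group Gabra4 and Gabrb1 start on opposite strands and share 46 exon bases, so reads from these bases cannot be assigned to either.

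Glycine receptors combine alpha subunits with the beta subunit, which binds the scaffold gephyrin. Glrb (ENSMUSG00000028020, chromosome 3, 80843599 to 80913660) was at 19.4, 18.6, 16.9 and 21.9 across the 4 Ang II libraries and 16.8, 21.6 and 20.6 across the 3 saline libraries (CPM per kilobase), above the summed level of the 4 alpha genes (14.1 to 17.9) in 7 of 7 libraries. Glra2 was at 5.66 to 7.45, Glra1 at 4.11 to 6.36, Glra3 at 2.38 to 3.7 and Glra4 at 0.959 to 1.99 CPM per kilobase. Glra2 led in 5 libraries and Glra1 in the other 2 (saline replicates 1 and 2), so these neighbours did not differ beyond their spread. Glra2 made up 40.8% ± 2.87 with Ang II (SD, n = 4) against 37.2% ± 5.63 with saline (SD, n = 3; exact permutation p = 0.314, adjusted p = 0.733) of the alpha level. Without division by length Glra3 was the highest of the 4.

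AMPA receptors carry fast glutamate signals to OFF bipolar, horizontal, amacrine and ganglion cells. Gria4 (ENSMUSG00000025892, chromosome 9, 4417896 to 4796234) was at 13.1, 12.9, 13.1 and 14.5 across the 4 Ang II libraries and 12.2, 12.1 and 13.4 across the 3 saline libraries (CPM per kilobase) and was highest of the 4 AMPA genes in 7 of 7 libraries. Gria1 at 8.39 to 10.3 and Gria2 at 6.73 to 11.2 overlapped, with Gria1 above in 4 of 7 libraries. Gria2, whose edited form makes the channel calcium-impermeable, was highest in Ang II replicate 3 and in saline replicate 2. Gria3 was lowest, at 2.97 to 4.32. The order of Gria1 and Gria2 turned when levels were divided by the longest coding transcript, where Gria2 held 28.6% and Gria1 22.9% of the AMPA level, and without any division by length Gria2 came first. Gria4 made up 37.7% ± 2.75 with Ang II (SD, n = 4) against 37.4% ± 2.9 with saline (SD, n = 3; exact permutation p = 0.943, adjusted p = 1).

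Kainate subunits were led by Grik5 (ENSMUSG00000003378, chromosome 7, 25009849 to 25072346), which needs a partner of the Grik1 to Grik3 group to form a channel. Grik5 was at 23.3, 19.4, 22.7 and 23.4 across the 4 Ang II libraries and 22.8, 19.4 and 25.2 across the 3 saline libraries (CPM per kilobase). Its possible partner Grik1 (ENSMUSG00000022935, chromosome 16, 87895900 to 88290265), the subunit of OFF bipolar cells, was at 13.9 to 17.1, below Grik5 in every library. That lead depended on the length used. Divided by the longest coding transcript, Grik5 held 46.8% and Grik1 45.0% of the kainate level. Grik3 and Grik2 were at 1.78 to 2.55 and 1.54 to 2.64 and did not differ beyond their spread, and Grik4 was at 0.361 to 0.697. Grik5 made up 52.1% ± 3.26 with Ang II (SD, n = 4) against 51.8% ± 3.9 with saline (SD, n = 3; exact permutation p = 0.914, adjusted p = 1) of the kainate level.

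NMDA receptors need GluN1 subunits, which bind glycine or serine, and GluN2 subunits, which bind glutamate. Grin1 was at 7.39 to 9.44 CPM per kilobase. It shares 13.5% of its exon bases with the antisense gene Grin1os, and the libraries do not mark the strand. Among GluN2 genes, Grin2d (ENSMUSG00000002771, chromosome 7, 45831883 to 45878378), the slowest-closing type, was at 3.09, 2.79, 2.55 and 2.92 across the 4 Ang II libraries and 4.66, 3.56 and 2.81 across the 3 saline libraries (CPM per kilobase), highest of the 4 in 7 of 7 libraries. It likewise shares 9.66% of its exon bases with an antisense gene. Grin2b at 1.27 to 1.77, Grin2a at 0.913 to 1.22 and Grin2c at 0.566 to 0.886 followed, in an order that held in every library. Without division by length Grin2b, whose exons total 24842 bases, exceeded Grin2d. Of the GluN3 genes, which lower calcium entry, Grin3a was at 1.35 to 1.71 and Grin3b at 0.213 to 0.48, and 32.1% of the exon bases of Grin3b lie in Tmem259 on the other strand. The delta subunit gene Grid1, whose protein binds cerebellins at synapses, was at 3.73 to 4.96.

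Nicotinic receptors answer the acetylcholine of starburst amacrine cells. Chrna6 (ENSMUSG00000031491, chromosome 8, 27403212 to 27413944), a subunit of ganglion cell receptors, was at 36.9, 38.5, 32.4 and 47 across the 4 Ang II libraries and 40.4, 42.8 and 40.8 across the 3 saline libraries (CPM per kilobase). It made up 71.9% ± 1.76 with Ang II (SD, n = 4) against 71.5% ± 0.813 with saline (SD, n = 3; exact permutation p = 0.83, adjusted p = 1) of the neuronal alpha level. Chrna4 was at 6.56 to 9.4 and Chrna7, which forms receptors of 1 subunit type, at 2.75 to 3.34. Chrna3 at 1.49 to 2.49 and Chrna2 at 1.44 to 2.0 did not differ beyond their spread, and Chrna5 was at 0.653 to 2.28, highest in saline replicate 1. Of the hair cell subunits, Chrna9 had 0 counts and Chrna10 had 1 count in all 7 libraries together.

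The partner beta genes were Chrnb3 at 11.8 to 18.6 and Chrnb2 at 9.72 to 13.1 CPM per kilobase, with Chrnb3 above in 7 of 7 libraries though the ranges overlap. Chrnb2 shares 16.3% of its exon bases with Adar on the other strand, and it led without division by length. Chrnb4 was far lower, at 0.324 to 0.821. Chrnb3 and Chrna6 lie 3482 bases apart on chromosome 8, and both were highest in Ang II replicate 4 and lowest in Ang II replicate 3. The 9 ganglion cell markers also summed highest in Ang II replicate 4, at 1049.9 CPM, but were lowest in Ang II replicate 2, at 781 CPM. Amacrine markers (873 to 1106 CPM) and horizontal cell markers (64.9 to 108 CPM) were highest in Ang II replicate 4 and lowest in Ang II replicate 3. Bipolar, rod and cone markers were also lowest in Ang II replicate 3, but highest in a saline library. The part of these cells in the Chrna6 and Chrnb3 levels was not tested. In bulk tissue fewer cells of a type and less RNA per cell cannot be told apart.

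The muscle-type subunits were unequal. Chrnb1 was at 4.26 to 5.38 CPM per kilobase, while Chrna1 was at 0.032 to 0.202. Chrne had 0, 3, 9 and 3 counts in Ang II and 0, 0 and 2 in saline, Chrnd had at most 2 and Chrng at most 1 per library. The highest Chrne and Chrna1 values, 9 and 14 counts, both came from Ang II replicate 3, the library with the highest skeletal muscle markers (318 CPM). Chrna1 was close behind in Ang II replicates 1 and 4, at 11 and 13 counts. There the muscle markers summed to only 36.4 and 38.6 CPM. The part of muscle in these counts was not tested. Chrnb1 was at 13.5 CPM in Ang II replicate 3, within the range of the other libraries (10.8 to 13.6 CPM).

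P2X genes were low and close to each other. P2rx5, P2rx6, P2rx4 and P2rx2 had means of 1.34 ± 0.391, 1.07 ± 0.253, 1.04 ± 0.137 and 0.977 ± 0.366 CPM per kilobase (SD over 7 libraries), and each of them was highest of the family in at least 1 library. They therefore had no order beyond their spread. P2rx3, a sensory neuron subunit, was at 0.352 to 0.563. P2rx7, known from microglia and cell death, was at 0.0303 to 0.127, with a log2 fold change of -0.32 ± 0.64 (SE). The 8 microglia markers summed to 45.4 to 54.6 CPM in Ang II and 35.4 to 44.5 CPM in saline, and their part in the P2X levels was not tested. P2rx1, the smooth muscle and platelet subunit, had 0 to 4 counts per library.

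**Figure D2:**
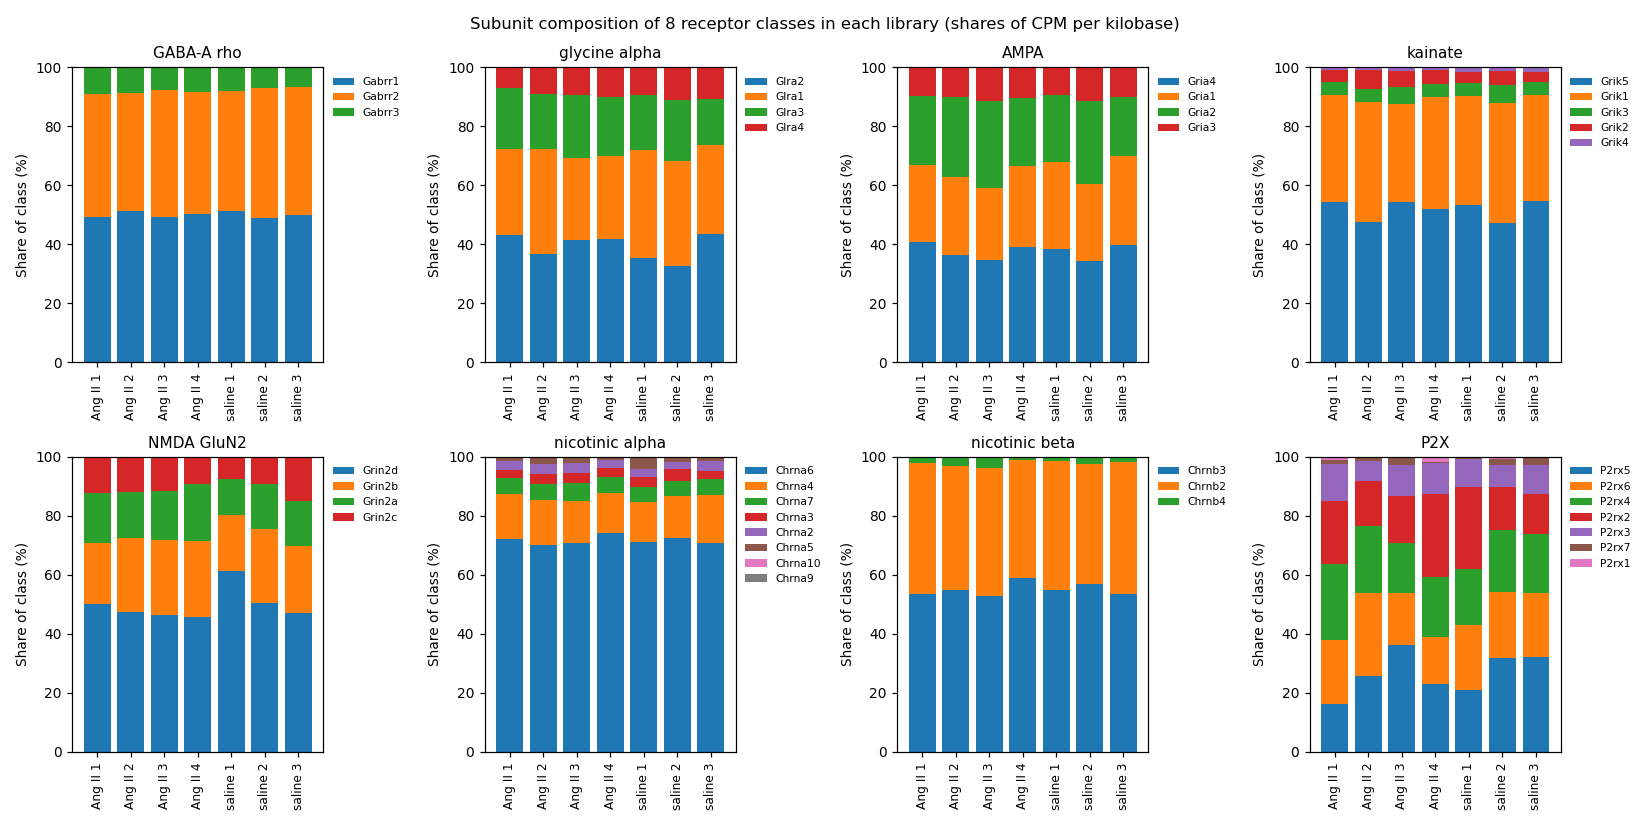
Share of each subunit gene in the summed CPM per kilobase of its class (y axis, percent), with 1 bar per library for 8 classes; colours name subunits from the highest mean at the bottom. In the rho bars Gabrr1 lies between 48.8% and 51.4% of the rho level, the P2X bars vary between libraries, and Grin2d is largest in saline replicate 1 at 61.1%.

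The comparison of Ang II with saline asked whether the infusion changed the expression of these channels, and no subunit passed. With edgeR's quasi-likelihood test 0 of 57 tested members had an adjusted p under 0.05, beside 0.0% of the 17078 genes tested, and the smallest adjusted p of a member was 0.982. DESeq2 and limma-voom also called 0 members, while calling 35 genes (0.205%) and 114 genes (0.668%) elsewhere in the table. An unadjusted p under 0.05 was found for 2 members higher in Ang II, against a background of 2.9% of all genes, and for 2 lower, against 1.72%. Together these 4 are 7.02% of the tested members, beside 4.62% of all genes.

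Fold changes lay on both sides of 0, with 26 members above and 31 below. Their median log2 fold change was -0.035, beside -0.0048 over all genes tested. With 1 library left out at a time, the members' median ranged over -0.083 to 0.016, so its sign turned. Between libraries, the members' median log2 ratio to the saline mean had an SD of 0.077. By family the medians were 0.063 for 17 GABA-A genes, -0.035 for 5 glycine genes, -0.049 for 18 glutamate genes, -0.040 for 11 nicotinic genes and -0.084 for 6 P2X genes. The data limit how large a change could have been missed. The 95% interval of the log2 fold change lay within a 2-fold change either way for 49 of 57 members (86%, beside 79.5% of all genes). The 8 exceptions (Gabre, Gabrq, Grik4, Grin3b, Chrna5, Chrnb4, Chrna1 and P2rx7) had group means of at most 4.15 CPM, although P2rx3 and Gabra5, in the same range, stayed within the bound.

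**Figure D3:**
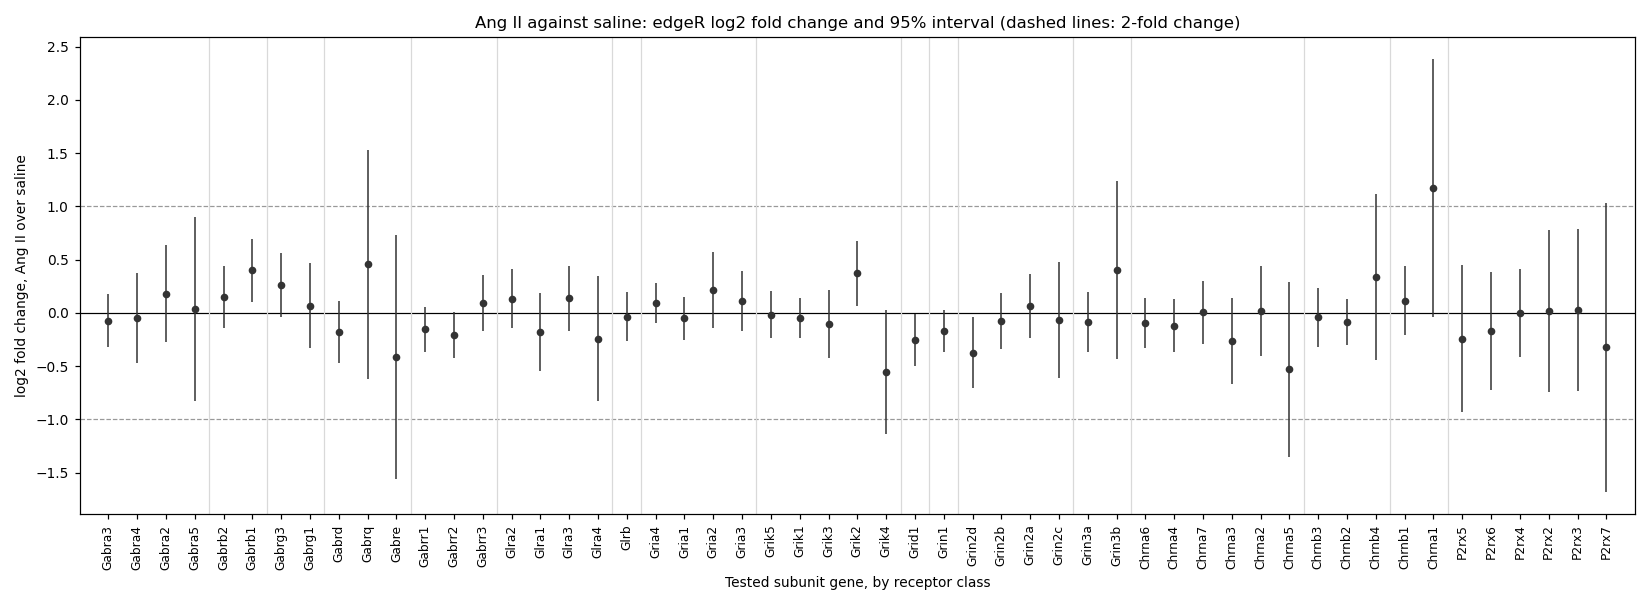
Log2 fold change of Ang II over saline for 53 of the 57 tested subunit genes (points) with 95% intervals from edgeR (bars), grouped by receptor class; the solid line is no change and the dashed lines are a 2-fold change. The points scatter on both sides of 0, from -0.56 for Grik4 to 1.17 for Chrna1, and the widest bars belong to Chrna1 and P2rx7.

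Among the most abundant genes the bounds were narrow. Gabrr1 was at 95.2 ± 11.2 CPM with Ang II (SD, n = 4) against 106 ± 6.13 CPM with saline (SD, n = 3), a log2 fold change of -0.15 ± 0.099 (SE) with a 95% interval -0.37 to 0.058. Chrna6 was at 112 ± 17.7 CPM with Ang II (SD, n = 4) against 120.1 ± 3.82 CPM with saline (SD, n = 3), a log2 fold change of -0.10 ± 0.11 (SE) with a 95% interval -0.33 to 0.14. Glrb had a log2 fold change of -0.035 ± 0.11 (SE) (95% interval -0.27 to 0.20) and Grik5 a log2 fold change of -0.018 ± 0.10 (SE) (95% interval -0.24 to 0.20). Gria4, Grik1, Gabra3 and Chrnb3 had log2 fold changes of 0.092, -0.047, -0.073 and -0.040. The direction of Gabra3, Glrb, Grik1, Grik5 and Chrnb3 turned when 1 library was left out.

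Of the 57 members, 2 had groups that did not overlap, 1 in each direction, which is 3.51% beside 5.91% of all genes tested (3.18% higher and 2.73% lower). The first was Gabrb1 (ENSMUSG00000029212, chromosome 5, 71658113 to 72149037), which is also the member of smallest p. It was at 17.5, 20.3, 23.5 and 21.5 across the 4 Ang II libraries and 16.8, 16.1 and 14.2 across the 3 saline libraries (CPM). Every Ang II library was above every saline library, by little between Ang II replicate 1 and saline replicate 1. The means were 20.7 ± 2.49 CPM with Ang II (SD, n = 4) against 15.7 ± 1.37 CPM with saline (SD, n = 3), giving a log2 fold change of 0.40 ± 0.14 (SE) with a 95% interval 0.10 to 0.70 and an edgeR adjusted p of 0.982. Leaving out 1 library at a time gave 0.34 to 0.47. Its relative Gabrb2 was at 0.15 ± 0.14 (SE), and neither gene passed.

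Grid1 (ENSMUSG00000041078, chromosome 14, 34820108 to 35583379) was the other, on the lower side. It was at 23.9, 22.5, 22.3 and 27.3 across the 4 Ang II libraries and 29.5, 27.5 and 29 across the 3 saline libraries (CPM). The highest Ang II value, in replicate 4, came close to the lowest saline value, in replicate 2. Its means were 24 ± 2.3 CPM with Ang II (SD, n = 4) against 28.7 ± 1.07 CPM with saline (SD, n = 3), giving a log2 fold change of -0.26 ± 0.12 (SE) with a 95% interval -0.50 to -0.010 and an edgeR adjusted p of 0.982, and -0.32 to -0.22 with 1 library left out at a time.

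Grik2, a kainate subunit gene, was at 24, 35, 30.6 and 28.1 across the 4 Ang II libraries and 20.4, 26.6 and 21.3 across the 3 saline libraries (CPM). The groups overlapped, since saline replicate 2 exceeded Ang II replicate 1. The log2 fold change of 0.37 ± 0.14 (SE) had a 95% interval 0.062 to 0.68 and an edgeR adjusted p of 0.982. Grin2d, on the lower side, was at 20.6, 18.6, 17 and 19.4 across the 4 Ang II libraries and 31, 23.7 and 18.7 across the 3 saline libraries (CPM). Here saline replicate 1 stood above all others, while saline replicate 3 lay within the Ang II range. Its log2 fold change of -0.37 ± 0.16 (SE) (edgeR adjusted p = 0.982) was -0.16 without saline replicate 1 and -0.53 without saline replicate 3. Limma-voom, which weights the libraries unequally, gave Grin2d an adjusted p of 0.0835, the smallest of any member there. Its largest weight, 3.33, went to saline replicate 1, against 0.43 to 2.13 in the other libraries and 0.632 in saline replicate 3. The share of Grin2d in the GluN2 level was 47.4% ± 1.86 with Ang II (SD, n = 4) against 52.9% ± 7.31 with saline (SD, n = 3; exact permutation p = 0.143, adjusted p = 0.60).

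Chrna1, the muscle-type alpha subunit, had the largest fold change of the members on a low count. It had 11, 7, 14 and 13 counts across the 4 Ang II libraries and 5, 2 and 7 across the 3 saline libraries. That is 0.68 ± 0.20 CPM with Ang II (SD, n = 4) against 0.293 ± 0.145 CPM with saline (SD, n = 3), a log2 fold change of 1.17 ± 0.57 (SE) with a 95% interval -0.038 to 2.38 (edgeR adjusted p = 0.982). The skeletal muscle markers summed to 22.2 to 318 CPM in Ang II and 25.3 to 43.5 CPM in saline, and 0 of the 12 genes were at 0 in all 7 libraries. Without Ang II replicate 1, 3 or 4 Chrna1 no longer passed the filter on low counts, so it has no value without the library of high muscle markers. Gabrg3, also among those of small p on the higher side, was at 16.6, 19.6, 19.3 and 20.9 CPM in Ang II and 13.6, 16.3 and 18 CPM in saline, with a log2 fold change of 0.26 ± 0.14 (SE).

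The remaining members of small p lay lower. Grik4, a low-abundance kainate subunit that raises glutamate affinity, was at 2.15, 2.38, 2.91 and 2.23 CPM in Ang II and 3.96, 2.52 and 4.16 CPM in saline, where replicate 2 lay within the Ang II range (log2 fold change of -0.56 ± 0.27 (SE)). Gabrr2 was at 65.7, 76.2, 69.7 and 77.8 CPM in Ang II and 73.1, 94.4 and 83.3 CPM in saline, overlapping groups with a log2 fold change of -0.21 ± 0.10 (SE). Grin1 was at 71.7, 84.4, 76.3 and 88.2 CPM in Ang II and 88.1, 91.5 and 91.3 CPM in saline, where Ang II replicate 4 just exceeded saline replicate 1 (log2 fold change of -0.17 ± 0.092 (SE)). Each of these 3 had an edgeR adjusted p of 0.982. The 9 bipolar cell markers, which mark the cells known for rho receptors, had a median log2 fold change of -0.13 and summed to 1532 to 1712 CPM in Ang II and 1662 to 1782 CPM in saline. Their part in the lower Gabrr1 and Gabrr2 values was not tested.

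**Figure D4:**
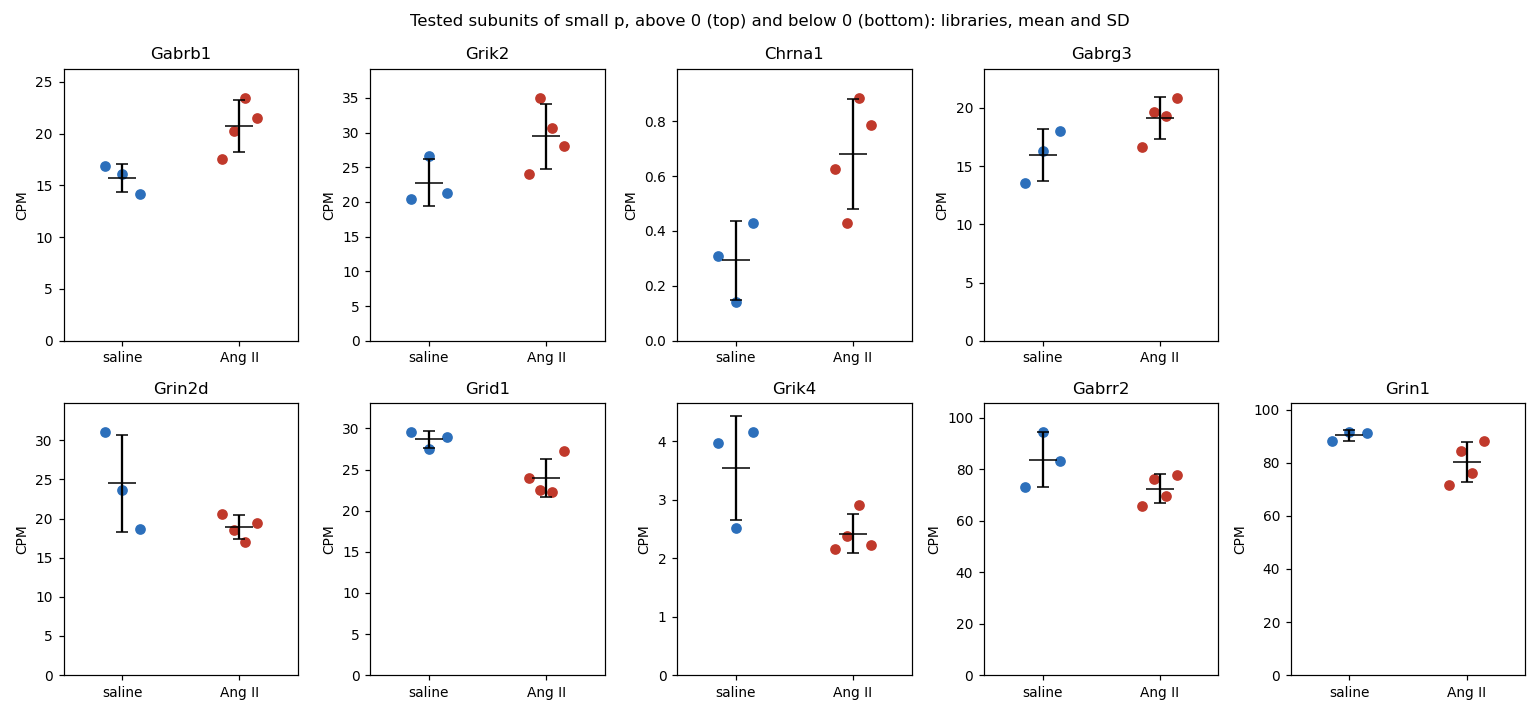
CPM of each library for 4 tested members of small p with a fold change above 0 (top row) and 5 with one below 0 (bottom row); points are libraries, the horizontal bar is the group mean and the error bar the SD (saline n = 3, Ang II n = 4), and each axis starts at 0. The groups are separate for Gabrb1 and Grid1 and overlap for the other genes shown.

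Subunit mix was compared as the share of the leading subunit in its class. An exact two-sided permutation test over 35 arrangements was run in 14 of the 15 classes of at least 2 genes, leaving out the mixed class of delta, epsilon, pi and theta subunits. The smallest adjusted p was 0.60. This design could hardly call a share, because 1 share alone at the smallest exact p it allows, 0.0286, would have an adjusted p of 0.40 over 14 classes, so the values are given as descriptions. Beyond the shares given above, Chrnb3 made up 55% ± 2.8 with Ang II (SD, n = 4) against 55% ± 1.72 with saline (SD, n = 3; exact permutation p = 0.914, adjusted p = 1) of the neuronal beta level. Grin3a made up 79.7% ± 3.66 with Ang II (SD, n = 4) against 84.6% ± 5.35 with saline (SD, n = 3; exact permutation p = 0.229, adjusted p = 0.64) of the GluN3 level. Chrnb1 made up 94.4% ± 2.7 with Ang II (SD, n = 4) against 97.6% ± 1.71 with saline (SD, n = 3; exact permutation p = 0.171, adjusted p = 0.60) of the muscle class, and P2rx5 made up 25.2% ± 8.35 with Ang II (SD, n = 4) against 28.3% ± 6.32 with saline (SD, n = 3; exact permutation p = 0.60, adjusted p = 1) of the P2X level.

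Of the 58 tested genes that work with these receptors, 0 passed edgeR's adjusted p of 0.05. An unadjusted p under 0.05 was found for 1 of them, beside 4.62% of all genes tested. Of 14 GABA synapse genes (synthesis, transport, scaffold and GABA-B receptor genes) 4 lay above 0 and 10 below, with a median of -0.043. The smallest p values were those of Clptm1, which retains GABA-A receptors in the endoplasmic reticulum, at -0.12 ± 0.079 (SE), and the auxiliary subunit gene Shisa7 at -0.24 ± 0.18 (SE). All 4 glycine genes tested lay below 0 (median -0.12), with the serine hydroxymethyltransferase genes Shmt1 at -0.34 ± 0.26 (SE) and Shmt2 at -0.13 ± 0.12 (SE).

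Of 25 glutamate receptor partners (auxiliary subunits, scaffolds and cerebellins) 13 lay above 0 and 12 below, with a median of 0.00059. The related AMPA receptor scaffold genes Grip1 and Grip2 had the smallest p values and opposite signs, at 0.26 ± 0.12 (SE, edgeR adjusted p = 0.982) and -0.26 ± 0.12 (SE, edgeR adjusted p = 0.982). The 8 tested of 9 cholinergic genes all lay slightly below 0 (median -0.035), among them Tmem35a, a nicotinic receptor chaperone, at -0.13 ± 0.10 (SE) and the toxin-like modulator Lynx1 at -0.13 ± 0.094 (SE). Of 7 purinergic genes 2 lay above and 5 below 0 (median -0.095), with the ecto-nucleotidases Nt5e at -0.18 ± 0.099 (SE) and Entpd3 at 0.21 ± 0.17 (SE). Of the photoreceptor markers, all 10 rod genes (median -0.21) and all 8 cone genes (median -0.18) lay below 0, with 0 called by edgeR. An unadjusted edgeR p under 0.05 was found for 7 rod genes (70%) and 0 cone genes, beside 1.72% of all genes in that direction. For 3 rod genes the groups did not overlap, beside 2.73% of all genes. The part of photoreceptors in the members' values was not tested. The median log2 fold changes of other neuron markers were -0.023 for 8 amacrine, -0.015 for 9 ganglion cell and 0.14 for 4 horizontal cell markers.

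Single libraries differed in how often they were extreme. Saline replicate 2 was the highest library for 15 of the 57 tested members (26.3%, beside 22.4% of all genes tested) and Ang II replicate 4 for 14 (24.6%, beside 12.3%). Ang II replicate 3 was the lowest for 15 (26.3%, beside 17.5%) and Ang II replicate 1 for 14 (24.6%, beside 10.8%). Ang II replicate 1 was the highest library for 0 members, beside 10.8% of all genes. The members' median log2 ratio to the saline mean was lowest in Ang II replicate 3, at -0.10, and highest in Ang II replicate 4, at 0.087, so both extremes fell within the Ang II group.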

How the data were processed

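Poly-A RNA of 7 mouse retina libraries was sequenced, and the authors deposited raw counts per gene for 54532 genes. Per the submitters' processing notes, CASAVA, HISAT2 2.0.5 and featureCounts 1.5.0-p3 were used with mm10. The kit does not mark the strand, so overlapping genes on opposite strands cannot be told apart. The deposited gene length and coordinates equal the GENCODE M21 exon union and span for 65 of 65 members.

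Genes passing filterByExpr (17078) were scaled by TMM and tested with edgeR 4.0.16 (glmQLFit, robust, and glmQLFTest, R 4.3.3), two-sided, with Benjamini-Hochberg adjustment over all of them and a threshold of 0.05. Standard errors came from dividing each log2 fold change by the root of its F statistic, and 95% intervals use the fit's degrees of freedom. DESeq2 1.42.0, limma 3.58.1 (voom with quality weights), library size scaling, no filter, a replicate block and leaving out each library were alternatives. In simulated counts with the same group sizes (16781 genes), the edgeR test recovered 80% of genes with a log2 fold of 1 and 96% with 2, with 12 false calls among 188. The simulation changed only genes with a mean of at least 1 CPM and drew each gene independently. These rates therefore do not cover members below that level, such as Chrna1. Levels between genes are CPM per kilobase. A count of 0 allows up to 3 counts (counting error only). Subunit shares were tested with an exact permutation test and adjusted over 14 classes.

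All members enter the counts and medians. By rule, values of every library or full statistics go to the leading subunits of each class and to the 5 tested members of smallest p in each direction. For 4 members, and for subunit shares that need them, values are not reported here. The members, lists and classes were chosen with earlier results of these data known.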

Additional observations from a re-analysis of the deposited data

Results flagged for a closer look

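Among the 57 tested subunit genes, 4 had a single Ang II library far from the other 3, by the gap to its nearest neighbour as a share of the range. The rule was not applied to groups of 3 libraries, so saline could not be flagged. Chance gives about 1 in 20 such groups, and 0 of 14 subunit shares were marked in this way. Gria4 was at 91.1 CPM in Ang II replicate 4, against 81.3 to 82.9 CPM in the others. Grik5 was at 100.2 CPM in Ang II replicate 2, against 117.5 to 120.9 CPM. P2rx2 was at 3.98 CPM in Ang II replicate 4, against 1.90 to 2.14 CPM, and P2rx6 was at 6.11 CPM in Ang II replicate 2, against 3.29 to 3.50 CPM. Ang II replicate 2 is also the library with the highest lens and cornea markers, at 2143 CPM, and their part in these values was not tested. P2rx6 shares 13.9% of its exon bases with Slc7a4 on the other strand.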

How the results depend on the processing

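Under each alternative tried, 0 tested members passed. Over all genes tested, edgeR called 0, DESeq2 35, limma-voom with quality weights 114, edgeR with no filter 98 and edgeR with the replicate block 56, while leaving out 1 library gave 0 to 117, with 117 (103 higher, 14 lower) without saline replicate 3. Shared replicate numbers did not pair the libraries (correlations of same-numbered deviations of -0.069, -0.021 and 0.046). For 32 named members under all alternatives, 357 of 381 fold changes kept their direction and 24 turned, in 10 members, and 0 were called; the cause was not tested. Turned log2 fold changes were 0.046 for Gabra3, 0.10 for Glrb, 0.0075 for Grik1, 0.015 for Grin3a, 0.0024 for Chrna4, -0.47 for P2rx2 with limma-voom, 0.011 for Glrb, 0.028 for Grik5, 0.0061 for Chrnb3 with library size scaling, which moved the median of all genes to 0.042, and -0.23 for P2rx2 with the replicate block. With 1 library left out, log2 fold changes that turned ranged over -0.14 to 0.062 for Gabra3, -0.13 to 0.037 for Glrb, -0.084 to 0.016 for Grik1, -0.11 to 0.080 for Grik5, -0.15 to 0.045 for Grin2b, -0.16 to 0.00064 for Chrnb2, -0.18 to 0.058 for Chrnb3, -0.29 to 0.45 for P2rx2. The Ang II minus saline difference in subunit share, in percentage points, turned to -0.51 for Gria4, -0.32 for Grik5 without length division, and to 0.048 for Gabrr1, -0.065 for Gria4 with coding transcript lengths, a choice made after seeing the data. With 1 library left out, share differences that turned ranged over -0.64 to 0.67 for Gabrr1, -1.37 to 1.43 for Gria4, -2.0 to 1.77 for Grik5, -0.42 to 0.89 for Chrna6, -1.25 to 1.01 for Chrnb3. With coding transcript lengths P2rx4 led the P2X genes. The 8 members whose intervals reach past a 2-fold change had group means of at most 4.15 CPM.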
